A study of Homo sapiens with 12 samples.

Results

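The collagen genes are the 42 protein-coding genes on the autosomes that GENCODE v44 names with COL, a number, A and a number, such as COL1A1, of 19111 autosomal protein-coding genes in all. Chromatin accessibility near them was measured by ATAC-seq, in which the Tn5 transposase places sequencing adapters in open chromatin. Each gene was read from the 100-bp accessible bins within 20 kb of any of its transcription start sites (TSSs). These were 1640 of the 709366 bins of the DU-145 table, near 41 genes, and 1512 of the 472994 bins of the BT-549 table, near 38 genes. COL11A1 had no bin in either table, and COL6A5, COL9A1 and COL10A1 had bins in the DU-145 table and none in the BT-549 table. The lines were compared with each other over the 842 of 321392 shared bins, which lie near 36 collagen genes. COL3A1 and COL6A6 have bins in both tables but none in common.

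DU-145 cells come from castration-resistant prostate cancer (CRPC) and BT-549 cells from triple-negative breast cancer (TNBC), and both are established human lines. All 12 libraries came from cells that carry a tetracycline-inducible short hairpin RNA against MUC1 (tet-MUC1shRNA). The groups are each line with vehicle and each line with doxycycline (DOX), with 3 libraries per group. DOX induces the hairpin and thereby silences MUC1-C, so the drug and the silencing share each contrast. No library with DOX and another hairpin was used here. The study's methods describe the replicates of a condition as biologically independent, and the labels give each a number. One label field calls the control cells untreated whereas the treatment protocol gives DMSO, and they are called vehicle here. A hairpin acts on the transcript, and accessibility at MUC1 therefore does not check the labels.

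Collagens are proteins of the extracellular matrix in which 3 chains, each encoded by a gene of its own or by the same gene, wind into a triple helix. Fibrillar collagens such as types I, III and V build the tensile fibers of connective tissue and are made mostly by fibroblasts and other mesenchymal cells. Type IV forms the sheet of the basement membrane under epithelia, and its genes lie head to head in pairs with a common promoter region. Type VI forms beaded filaments, FACIT collagens decorate the surface of fibrils, and transmembrane collagens such as type XVII attach epithelial cells to the matrix beneath. Accessibility is a state of the chromatin, and the amount of collagen RNA or protein was not measured in these libraries.

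In units of 1000000, the coverage of the bins summed to 12.4 to 25.2 per library in DU-145, to 9.14 to 13.6 in BT-549 with vehicle and to 2.5 to 3.27 in BT-549 with DOX. BT-549 with DOX is therefore the shallowest group, and depth moves with DOX in that line. Of 7 epithelial markers, all had bins in DU-145, and EPCAM (84.2 CPM on average with vehicle) and KRT8 (192 CPM) had none in BT-549. CPM (counts per 1000000 of the library) is the coverage of a gene's bins scaled to the summed coverage of the library. Of 7 mesenchymal markers, all had bins in BT-549 and CDH2 and TWIST1 had none in DU-145. The other 4 epithelial markers had bins in both lines and did not all separate them: over shared bins with vehicle, ELF3 was lower in BT-549 (log2 ratio -1.75, adjusted p = 1.76e-17), GRHL2 (1.09, adjusted p = 3.83e-07) and ESRP1 (0.18, adjusted p = 0.0294) were higher, and CDH1 did not pass the test (0.25, adjusted p = 0.263). KRT18 had bins in DU-145 only. Leukocyte markers such as PTPRC also had bins in both tables. In bulk libraries, a smaller opening in every cell and fewer cells with an open site cannot be told apart.

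In DU-145, the bins near collagen genes took 0.153%, 0.155% and 0.154% of the coverage in the vehicle libraries and 0.162%, 0.169% and 0.166% in the DOX libraries. In BT-549, they took 0.231%, 0.235% and 0.229% with vehicle and 0.227%, 0.213% and 0.221% with DOX. The share was thus higher with DOX in DU-145 and lower with DOX in BT-549, with no overlap between the groups of 3 in either line. These sums include bins that entered a table through the peaks of a single group, so that the shares are a description. With 3 libraries against 3, an exact permutation test cannot give a p below 0.1, and no test is given for these shares.

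The first comparison asked how DOX changed accessibility near each collagen gene in DU-145. Of 41 genes, 16 (39%) were higher with DOX and 8 (19.5%) were lower at an adjusted p under 0.05 (edgeR quasi-likelihood test, Benjamini-Hochberg over 17260 genes). Among all genes tested, 51.3% were called, 19.1% higher and 32.2% lower. The collagen counts include COL1A2, COL6A6, COL8A1, COL10A1, COL15A1, COL19A1 and COL22A1 among the higher genes and COL21A1 and COL4A3 among the lower ones. Their values are given below as a description, for the reasons stated there. The median log2 fold change was 0.12 over the collagen genes and -0.066 over all genes. COL15A1 had a large increase, and COL1A2 and COL6A6 did as well, although the bins that carry their gains came from peaks of the DOX libraries alone. The largest decrease was at COL2A1. Within 1 kb of the TSSs, 6 of 32 collagen genes were higher and 5 lower, against 1211 higher and 5559 lower of 14317 genes. The share of higher genes among the called collagens was 66.7%, and it was 78.3% with TMM factors (18 higher and 5 lower). Over all genes, these shares were 37.3% and 49.5%. When each gene was read from its highest bin, 11 collagen genes were higher and 12 lower, and the higher share of all called genes was 14.7%.

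**Figure D1:**
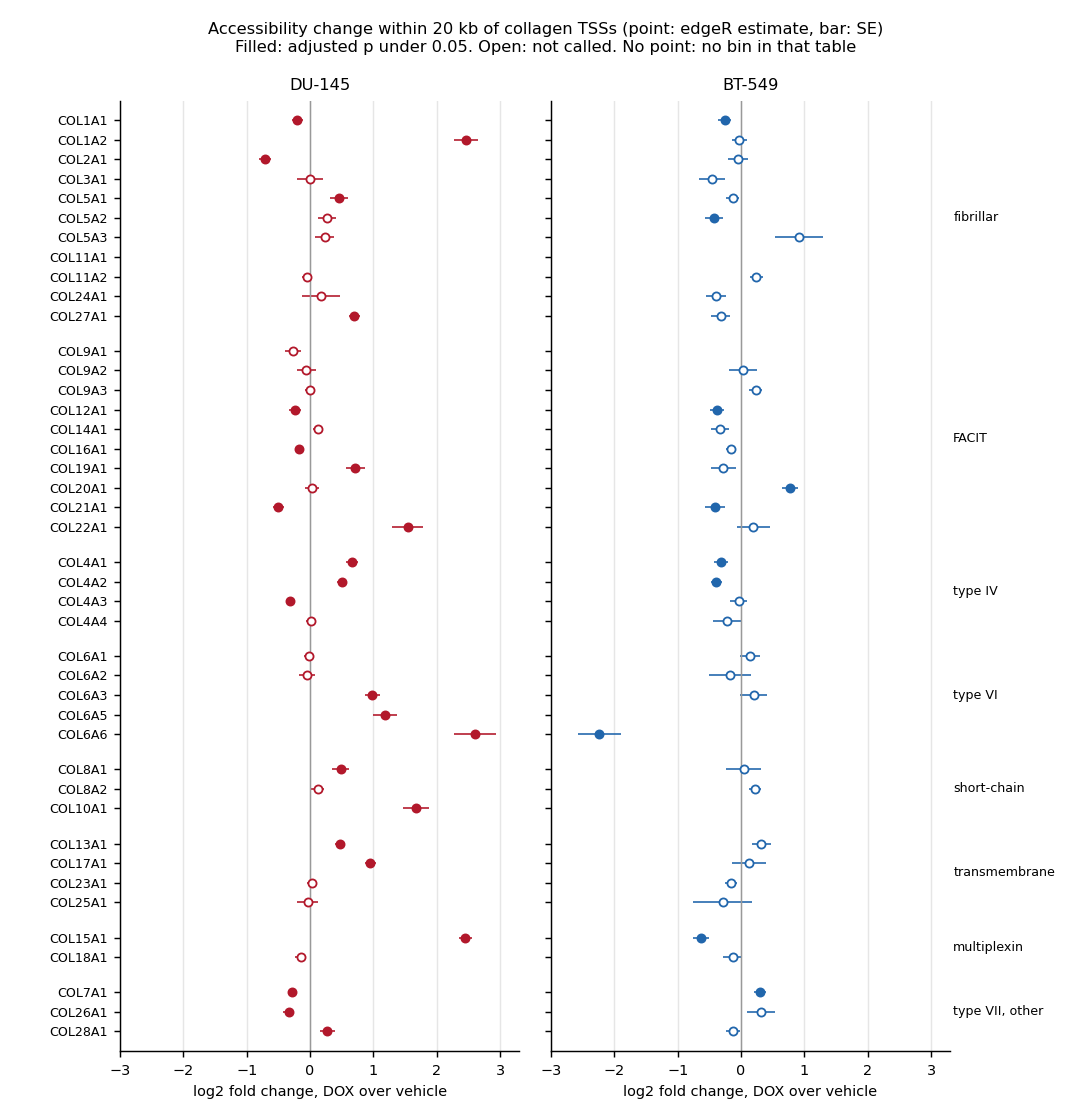
Log2 fold change of accessibility with DOX for each collagen gene (rows, grouped by class), with DU-145 at left, BT-549 at right and the SE as a bar. Filled points passed an adjusted p of 0.05, and COL15A1 lies to the right of 0 in DU-145 (2.45) and to the left in BT-549 (-0.63), where the fall lies in bins with peaks in vehicle libraries alone. The points of COL6A6 rest on different bins in the 2 lines, each from peaks of 1 group, and are not to be compared.

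Of the fibrillar genes with bins in DU-145, 3 of 10 were higher with DOX and 2 were lower. For this and the other class counts in DU-145, the shares over all genes are 19.1% higher and 32.2% lower. COL1A2, which encodes the alpha-2 chain of type I collagen, had 2.18, 2.76 and 1.81 CPM with vehicle and 11.5, 13.8 and 13.3 CPM with DOX. Every DOX library lay above every vehicle library (log2 fold change 2.46). Nearly all of this gain lay outside the promoter, since bins within 1 kb of a COL1A2 TSS went from 1.43 to 2.35 CPM on average and the other bins from 0.823 to 10.5 CPM. Within 5 kb of the TSSs, the log2 fold change was 0.65 and did not pass the test (adjusted p = 0.0646). The opening site is an intergenic region at chr7:94382401-94383300 (GRCh38) whose highest bin is 11.9 kb upstream of the nearest COL1A2 TSS. Its coverage per bin, scaled to the mean library size of the line, was 0.994, 2.42 and 1.75 with vehicle and 18.8, 25 and 22.2 with DOX (log2 fold change 3.51). It had a called peak in all DOX and in no vehicle libraries, so that it entered the table through the group in which it is high, and this gain is a description that no test supports. The highest bin of this region, chr7:94382901-94383000, is shown on the plus strand because it marks the site that carries the COL1A2 values.
COL1A2 upstream region: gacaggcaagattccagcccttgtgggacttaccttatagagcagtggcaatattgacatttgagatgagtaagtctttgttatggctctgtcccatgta

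COL1A1, which encodes the alpha-1 chain of the same protein, had 91.2, 108 and 97.5 CPM with vehicle and 79.5, 95.2 and 84.5 CPM with DOX in DU-145. These groups overlapped, and the decrease by 0.20 on the log2 scale (SE 0.08, adjusted p = 0.0287) did not pass with TMM factors (-0.14, adjusted p = 0.118), nor without vehicle replicate 2 (-0.12), DOX replicate 1 (-0.14) or DOX replicate 3 (-0.18). COL27A1, a fibrillar chain known from cartilage, rose from 43.2, 45.8 and 42.6 to 66.6, 73.3 and 74.4 CPM (log2 fold change 0.70, SE 0.08, adjusted p = 8.04e-09). Its promoter bins had 18.7 CPM with vehicle and 16.4 CPM with DOX, so that the gain lay elsewhere in the window (25.1 to 55.1 CPM), and within 5 kb the value was -0.20 (adjusted p = 0.154). COL5A1, a chain of the type V collagen that nucleates fibrils, rose from 10.5 to 12.1 CPM with vehicle to 13.5 to 17.3 CPM with DOX (0.46, SE 0.14, adjusted p = 0.00549), a call lost within 1 kb (0.15, adjusted p = 0.533) and with the highest bin (0.24, adjusted p = 0.328). COL5A2 did not pass (0.27, adjusted p = 0.092), but was called higher with TMM factors (0.34), within 5 kb (0.57) and without vehicle replicate 3 (0.38), and lower by its highest bin (-0.47). Its 1 region called higher (3.59) had peaks in the DOX libraries alone, so that the higher values are a description. COL3A1, the chain of type III collagen, had 3.43 to 4.42 CPM in all 6 libraries and did not pass the test (0.00, adjusted p = 0.998).

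COL2A1, which encodes the collagen of cartilage, had the largest decrease in DU-145. Its coverage was 72.4, 62.4 and 72.1 CPM with vehicle and 38.1, 43.2 and 44.4 CPM with DOX, without overlap (log2 fold change -0.71, SE 0.09, adjusted p = 1.89e-08). The DU-145 table holds no bin within 1 kb of a COL2A1 TSS, and the promoter of the neighbouring TMEM106C took 22.8% of the coverage of the window with vehicle. The decrease lay in an intergenic region at chr12:48021501-48022400, with its highest bin 17.4 kb upstream of a COL2A1 TSS. Its coverage per bin was 82.5, 70.5 and 74.6 with vehicle and 12, 14.9 and 18.6 with DOX (log2 fold change -2.30, SE 0.13, adjusted p = 5.24e-16). Within 5 kb of the TSSs, the log2 fold change was 0.27 and did not pass (adjusted p = 0.0688). The highest bin, chr12:48021901-48022000, is printed on the plus strand as the site with the largest loss among the named regions.
COL2A1 upstream region: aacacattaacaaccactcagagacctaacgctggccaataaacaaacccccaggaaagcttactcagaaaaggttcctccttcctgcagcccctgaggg

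The multiplexin COL15A1, whose product is a proteoglycan at the outer face of basement membranes, had a large increase in DU-145. Its coverage was 11.4, 15.2 and 14.3 CPM in the DU-145 vehicle libraries and 81.7, 69.9 and 74.6 CPM in the DOX libraries (log2 fold change 2.45). Of its 55 bins, 13 lie in regions with peaks in the DOX libraries alone, so that this total is a description. Within 1 kb of the TSSs, the value was 0.80 and did not pass (adjusted p = 0.0914). The lowest DOX library was above the highest vehicle library by a wide margin. Of its 8 accessible regions in DU-145, 7 were called higher with DOX and none lower, 2 of them with no peak in any vehicle library. Without the 13 bins of regions that had peaks in the DOX libraries alone, COL15A1 had 9.56, 13.9 and 11.6 CPM with vehicle and 72.5, 60.3 and 65.9 CPM with DOX. Here and below, a region is a run of adjoining bins, and it was called at an adjusted p under 0.05 and a fold change of at least 2. The intronic region at chr9:99019301-99020600 had 4.97, 10.3 and 5.21 per bin with vehicle and 50.6, 44.6 and 54.3 with DOX (log2 fold change 2.77, SE 0.17, adjusted p = 2.38e-15). A second intronic region, chr9:99054701-99056100, had 4.51, 4.34 and 5.76 with vehicle and 31.9, 25.3 and 25.2 with DOX (2.50, SE 0.17, adjusted p = 1.35e-14). Both regions had a called peak in all 6 libraries of the line. The highest bins of both, chr9:99020001-99020100 and chr9:99055501-99055600, follow on the plus strand, since they mark the COL15A1 sites that carry the rise.
COL15A1 intron, first region: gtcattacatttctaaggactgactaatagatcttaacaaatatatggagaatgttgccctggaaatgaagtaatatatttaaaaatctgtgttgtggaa
COL15A1 intron, second region: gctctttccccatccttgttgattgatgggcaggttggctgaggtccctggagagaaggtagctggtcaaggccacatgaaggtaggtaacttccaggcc
The other multiplexin, COL18A1, the source of endostatin, was not called (-0.15, adjusted p = 0.156).

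**Figure D2:**
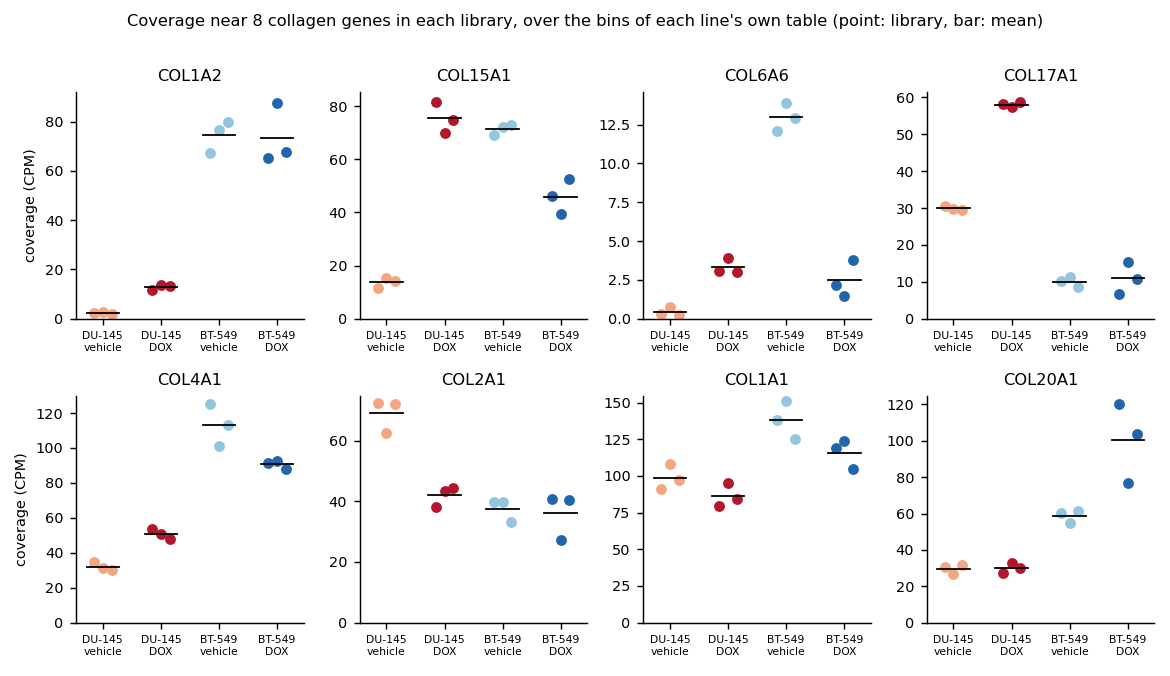
Coverage (CPM) near 8 collagen genes in every library, over the bins of the table of each line, with 3 points per group and a bar at the mean. For COL1A2, the DU-145 DOX libraries (11.5 to 13.8) lie above the vehicle libraries (1.81 to 2.76). The bins differ between the lines, so that levels are to be compared within a line.

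Among the type VI genes in DU-145, 3 of 5 were called higher with DOX, COL6A6 included, and none lower. COL6A6 had 0.306, 0.772 and 0.227 CPM with vehicle and 3.07, 3.9 and 2.98 CPM with DOX. The DU-145 vehicle libraries had no called peak within 20 kb of its TSSs and the DOX libraries had 2 each, so these bins entered the table through the group in which they are high, and the change had to be an increase. Its values are therefore a description, and its call supports nothing. COL6A5 rose from 2.77 to 4.68 CPM with vehicle to 7.53 to 9.83 CPM with DOX (1.18, SE 0.19, adjusted p = 4.57e-06). The vehicle libraries had 1, 1 and 0 peaks within 20 kb of COL6A5 and the DOX libraries 1, 1 and 1. COL6A3, the long chain of type VI collagen, rose from 13.7, 13.8 and 16.9 to 31.1, 28.6 and 27.4 CPM (0.98, SE 0.12, adjusted p = 1.47e-08). Of its 2 regions called higher, 1 had peaks in the DOX libraries alone, and without its 3 bins COL6A3 had 13.3, 13.6 and 16.7 CPM with vehicle and 28.5, 26.9 and 25.2 CPM with DOX. All of the DU-145 bins of COL6A3 lie more than 1 kb from its TSSs. The partner chains COL6A1 (-0.02, adjusted p = 0.811) and COL6A2 (-0.05, adjusted p = 0.757) did not pass the test, and their values turned to 0.04 and 0.01 with TMM factors.

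Of the 4 type IV genes, COL4A1 and COL4A2 were higher with DOX in DU-145 and COL4A3 was lower. COL4A1, a chain of nearly every basement membrane, had 34.8, 31.4 and 29.9 CPM with vehicle and 53.7, 51 and 47.7 CPM with DOX (log2 fold change 0.66, SE 0.09, adjusted p = 2.48e-07). COL4A2, its partner, had 45.5, 41.8 and 40.3 CPM with vehicle and 62, 62.2 and 57.8 CPM with DOX (0.51, SE 0.08, adjusted p = 4.79e-06), and 41.3 and 58.6 CPM without its 4 bins from peaks of 1 group alone. These values are not independent, because the windows share 41 bins of the 52 and 61 bins of the 2 genes. Bins at the promoter had 20.1 CPM with vehicle and 23.3 CPM with DOX at COL4A1, whereas the other bins went from 11.3 to 26.7 CPM, and neither gene passed within 5 kb (0.22 for both, adjusted p = 0.104) or by the highest bin (0.16 for both, adjusted p = 0.417). Intron regions of COL4A2 at 5.49, 12.6 and 16 kb from the nearest collagen TSS opened by 1.21, 1.85 and 1.72 on the log2 scale.

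COL4A3, a chain of the basement membrane of the kidney and lung, showed opposite changes within its window. The total was 141, 139 and 118 CPM with vehicle and 107, 107 and 109 CPM with DOX (log2 fold change -0.31). Of the 71 bins, 12 lie in a region with peaks in the vehicle libraries alone, so that this total is a description, and without them COL4A3 had 135, 134 and 111 CPM with vehicle and 105, 105 and 107 CPM with DOX. The bins within 1 kb of its TSSs however rose from 42.5 to 55.9 CPM, and within 5 kb the log2 fold change was 0.54 (adjusted p = 1.01e-05). The bins that fell were those near the TSSs of other genes (39.5 to 26.2 CPM), among them MFF, and those elsewhere (50.8 to 25.3 CPM). The largest loss was at an intronic region, chr2:227183501-227184500, with 89.1, 86.2 and 75.2 per bin with vehicle and 26.6, 19 and 19.9 with DOX (-1.95, SE 0.12, adjusted p = 2.26e-15). COL4A4, whose TSS is next to that of COL4A3, had 98.4 ± 10.7 CPM with vehicle and 99.2 ± 3.81 CPM with DOX (SD, n = 3; 0.01, adjusted p = 0.938 by edgeR).

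The 170 bases between the ends of the COL4A4 and COL4A3 genes, chr2:227164454-227164623, are shown on the plus strand because the 2 genes start at its ends, with COL4A4 read to the left and COL4A3 to the right. Capitals mark the GC box, GGGCGG or its reverse complement CCGCCC, which occurs 2 times. The CCAAT box (CCAAT or ATTGG) does not occur in this window. In windows of the same length before 35116 TSSs of the RefSeq promoter table, 38.3% held the GC box and 25.4% the CCAAT box.
COL4A4 to COL4A3: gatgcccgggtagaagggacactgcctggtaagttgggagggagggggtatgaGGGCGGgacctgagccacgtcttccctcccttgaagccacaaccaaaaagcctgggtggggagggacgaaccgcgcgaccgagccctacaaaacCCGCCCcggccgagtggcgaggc
The closing intronic region of COL4A3 holds the AP-1 sequence, TGACTCA or its reverse complement TGAGTCA, in 2 bins, chr2:227183501-227183600 and chr2:227184301-227184400. They are printed on the plus strand with that sequence in capitals, since AP-1 is the transcription factor family that the study followed.
COL4A3 intron, first bin: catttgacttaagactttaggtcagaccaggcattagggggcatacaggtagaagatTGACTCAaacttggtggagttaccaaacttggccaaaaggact
COL4A3 intron, second bin: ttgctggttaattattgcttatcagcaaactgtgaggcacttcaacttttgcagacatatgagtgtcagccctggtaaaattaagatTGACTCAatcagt

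Of the 4 transmembrane genes, COL17A1 and COL13A1 were higher with DOX in DU-145. COL17A1, a component of hemidesmosomes, had 30.6, 29.7 and 29.6 CPM with vehicle and 58.1, 57.3 and 58.8 CPM with DOX (log2 fold change 0.95, SE 0.09, adjusted p = 3.45e-11). The groups did not overlap, but the highest bin of the gene gave -0.17 and did not pass (adjusted p = 0.437). An intergenic region at chr10:104093701-104094500, 8.17 kb upstream, had 5.62, 5.3 and 6.1 per bin with vehicle and 28.9, 31.1 and 34 with DOX (2.46, SE 0.18, adjusted p = 2.4e-13). An intronic region of the same gene, chr10:104052401-104053200, moved the other way, from 15.6, 15.2 and 13.8 to 7.4, 4.85 and 8.21 (-1.13, SE 0.22, adjusted p = 3.62e-05), and its fold fell short of the limit without DOX replicate 2 (-0.91). The bin of the opening region that holds the AP-1 sequence, chr10:104093801-104093900, is given on the plus strand with that sequence in capitals, as the opening counterpart of the closing COL4A3 bins.
COL17A1 upstream region: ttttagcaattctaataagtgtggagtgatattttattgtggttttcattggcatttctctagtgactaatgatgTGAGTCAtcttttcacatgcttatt
COL13A1 rose by 0.47 (SE 0.07, adjusted p = 1.82e-06), with 73 ± 6.21 CPM with vehicle and 101 ± 4.55 CPM with DOX (SD, n = 3).

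COL10A1, the short-chain collagen of hypertrophic cartilage, went from 3.47, 3.34 and 2.02 to 10.8, 8.22 and 10.1 CPM in DU-145 (log2 fold change 1.67). The vehicle libraries had 1, 3 and 0 peaks within 20 kb of COL10A1 and the DOX libraries 3, 3 and 3, so that this is a description. The short-chain gene COL8A1 was at 0.48, and 7 of its 28 bins lie in regions with peaks in the DOX libraries alone, so that this is a description. Without them, it had 9.88 CPM with vehicle and 13.4 CPM with DOX. Its call was lost without vehicle replicate 1 (0.32, adjusted p = 0.0658) and after removal of the GC trend (0.31, adjusted p = 0.0639), and the highest bin gave -0.29 (adjusted p = 0.29). Among the FACIT genes, 2 of 10 were higher and 3 were lower, close to the shares over all genes. COL22A1, a FACIT collagen of tissue junctions, had 1.49, 1.87 and 1.12 CPM with vehicle and 5.57, 3.52 and 5.03 CPM with DOX. The vehicle libraries had 0, 1 and 0 peaks within 20 kb of it and the DOX libraries 1, 2 and 2, so that this is again a description. COL19A1 went from 12.6, 9.5 and 7.62 to 15.2, 17.1 and 16.4 CPM (0.71). Of its 3 regions called higher, 2 had peaks in all DOX libraries and in no vehicle library, so that the gene's value is a description, and it did not pass within 5 kb (0.33, adjusted p = 0.0974) or 1 kb (0.12, adjusted p = 0.604). The third, in an intron at chr6:69917801-69918400, had peaks in 2 vehicle and 3 DOX libraries, with 2.83 to 5.44 per bin with vehicle and 15.6 to 17.3 with DOX (2.11, SE 0.26, adjusted p = 1.53e-08), and was chosen after its values were seen. COL21A1 went from 51.3, 51.4 and 61.3 to 39.1, 41.6 and 34.9 CPM (-0.50). Its 1 called region, upstream of the gene (-2.77), had peaks in no DOX library, so that this fall is a description. Without the 9 bins of that region, COL21A1 had 45.6, 45 and 50.9 CPM with vehicle and 38.1, 40.7 and 33.7 CPM with DOX, and within 1 kb of the TSSs its value was -0.42 (adjusted p = 0.032). COL12A1 (-0.24, adjusted p = 0.0202) and COL16A1 (-0.17, adjusted p = 0.0245) fell less, and neither passed with TMM factors (-0.18 and -0.11). COL12A1 was also lost without vehicle replicate 1 (-0.22), vehicle replicate 2 (-0.22) or DOX replicate 3 (-0.21), and COL16A1 without vehicle replicate 1 (-0.14) or DOX replicate 1 (-0.14).

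COL26A1 fell from 47.6, 46.1 and 50.6 to 34.9, 38.1 and 40.3 CPM in DU-145 (log2 fold change -0.34, SE 0.09, adjusted p = 0.0017), but did not pass within 1 kb (-0.39, adjusted p = 0.101). COL7A1, which encodes the anchoring fibrils of skin, fell from 97.5, 96.7 and 96.6 to 76.6, 81.2 and 81.5 CPM (-0.28, SE 0.07, adjusted p = 0.000942). That value does not describe COL7A1 itself, because the promoters of other genes, PFKFB4 and UQCRC1, took 86.2% of the coverage of its window with vehicle. Without those bins, the log2 fold change was 0.18 and did not pass (adjusted p = 0.317). COL28A1 rose by 0.27 (adjusted p = 0.0471), but not without vehicle replicates 2 (0.21) or 3 (0.28) or DOX replicates 1 (0.23), 2 (0.28) or 3 (0.31), and not after removal of the trend with GC content (0.06, adjusted p = 0.708) or within 5 kb (0.27, adjusted p = 0.0552). Within 1 kb, COL28A1 was called lower (-0.82, adjusted p = 0.0277). The windows of COL11A2 (80.8%), COL23A1 (70.7%), COL8A2 (57.7%), COL9A3 (45.5%) and COL16A1 (35.5%) also held much coverage from promoters of neighbouring genes in DU-145.

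The same comparison was made in BT-549, where DOX went with fewer called collagen genes. Of 38 genes, 2 (5.26%) were higher and 8 (21.1%) were lower with DOX, against 19.2% higher and 11.6% lower among the 15982 genes tested (30.8% called in all). The median log2 fold change was -0.13 over the collagen genes and 0.055 over all genes. The larger of the 2 called increases was at COL20A1. COL5A3 had 2.46, 2.06 and 2.55 CPM with vehicle and 3.31, 3.53 and 6.12 CPM with DOX over 3 bins, and did not pass (0.91, SE 0.38, adjusted p = 0.0625). The regions called lower near COL6A6, COL15A1, COL12A1, COL5A2, COL1A1 and COL21A1 had peaks in all vehicle libraries and in no DOX library. Bins of this kind entered the table through the group in which they are high, so the falls of these 6 genes are given as a description, without a p, although they are among the 8 called lower. Without the bins of regions that had peaks in 1 group alone, the means with vehicle and DOX were 30.3 and 33.5 CPM at COL15A1, 105 and 106 CPM at COL1A1, 31.1 and 28.3 CPM at COL21A1, 95.9 and 80.9 CPM at COL12A1 and 48.4 and 37.2 CPM at COL5A2, and no bin was left at COL6A6. This comparison was chosen after the data were seen and was not tested. The share of higher genes among the called collagens was 20%, against 7.69% with TMM factors (1 higher and 12 lower) and 37.5% after removal of the GC trend (3 higher and 5 lower). Over all genes, the shares under these settings were 62.3%, 50.6% and 67.8%. The number of lower genes was 5 without vehicle replicate 1 or 3, and the number of higher genes was 1 without either of these and 4 without DOX replicate 3. All BT-549 DOX libraries were shallower than the vehicle libraries, so that DOX and depth cannot be told apart in this line.

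COL6A6 had 12.1, 13.9 and 12.9 CPM with vehicle and 2.17, 1.49 and 3.77 CPM with DOX in BT-549. Its bins belong to an intronic region of the gene, chr3:130601301-130602300, which had 16.8, 19.4 and 18.9 per bin with vehicle and 3.7, 1.26 and 4.89 with DOX. This region is not in the DU-145 table, and the DU-145 regions that opened near COL6A6 are not in the BT-549 table. COL15A1 had 69.3, 72.3 and 72.8 CPM with vehicle and 46.2, 39.3 and 52.4 CPM with DOX (-0.63). The vehicle libraries had 18, 15 and 11 peaks within 20 kb of it and the DOX libraries 2, 3 and 1. Its promoter bins had 21.8 and 24.7 CPM with vehicle and DOX and the other bins 49.6 and 21.3 CPM, so that the decrease lay away from the TSSs, and within 5 kb the value was 0.19 (adjusted p = 0.514). Of the 8 BT-549 regions of COL15A1, 3 were called lower and none higher, and these 3 had peaks in the vehicle libraries alone. No BT-549 region met the rule for naming regions, and the BT-549 regions described here were chosen after their values were seen.

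COL4A1 and COL4A2 were called lower with DOX in BT-549. COL4A2 had 169, 154 and 168 CPM with vehicle and 124, 125 and 124 CPM with DOX (log2 fold change -0.39), and did not pass within 1 kb (-0.27, adjusted p = 0.0941). Of its 77 bins, 11 lie in regions with peaks in the vehicle libraries alone, so that this is a description, and without them it had 154 CPM with vehicle and 116 CPM with DOX. COL4A1 had 125, 101 and 113 CPM with vehicle and 91.2, 92.5 and 88 CPM with DOX (-0.32, SE 0.11, adjusted p = 0.0193). The windows of the pair share 35 bins of 43 and 77. The COL4A1 call was lost without vehicle replicate 1 (-0.24), vehicle replicate 3 (-0.32) or DOX replicate 3 (-0.30), by the highest bin (-0.39, adjusted p = 0.228) and without other promoters (-0.27, adjusted p = 0.272), a setting that drops the promoter of the pair. Unlike in DU-145, the promoter bins of COL4A1 took part, with 75.8 CPM with vehicle and 57.3 CPM with DOX.

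Of the fibrillar genes in BT-549, 2 of 10 were lower with DOX and none was higher, beside 11.6% and 19.2% of all genes, and both calls were lost without single libraries. COL5A2 had 52.4, 55.1 and 58.2 CPM with vehicle and 39.2, 43.4 and 40.5 CPM with DOX (log2 fold change -0.43), and the call was lost without vehicle replicate 3 (-0.39), within 5 kb (-0.20) and after removal of the GC trend (-0.15). COL1A1 had 138, 151 and 125 CPM with vehicle and 119, 124 and 105 CPM with DOX (-0.26). This call was lost without vehicle replicates 1 (-0.26) or 2 (-0.19) or DOX replicates 1 (-0.28) or 3 (-0.19), and within 5 kb the value was 0.16 (adjusted p = 0.427). COL1A2 had 67.4, 76.6 and 80.1 CPM with vehicle and 65.4, 87.7 and 67.6 CPM with DOX (-0.03, adjusted p = 0.902), and no difference was detected. COL3A1 had 40.3, 39.1 and 38.5 CPM with vehicle and 21, 16.3 and 46.3 CPM with DOX (-0.46, adjusted p = 0.0877). DOX replicate 3 was apart from the other two, and COL3A1 was called lower without it (-1.07) and, with all libraries, with TMM factors (-0.51). The vehicle libraries had 8, 9 and 9 peaks within 20 kb of COL3A1 and the DOX libraries 0, 1 and 2, so that these lower values are a description. COL5A1 (-0.13, adjusted p = 0.342) was not called.

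COL20A1, a FACIT collagen, had 60.4, 54.7 and 61.6 CPM with vehicle and 120, 76.9 and 104 CPM with DOX in BT-549 (log2 fold change 0.77, SE 0.13, adjusted p = 9.22e-06), and the highest bin gave 0.70 and did not pass (adjusted p = 0.151). The rise included the promoter, whose bins had 17.3 CPM with vehicle and 43.7 CPM with DOX. COL12A1, which binds type I fibrils, went from 108, 112 and 107 to 77.9, 80.8 and 91.1 CPM (-0.38). The COL12A1 promoter bins had 48.8 and 49.1 CPM, and the bins elsewhere 60.1 and 34.2 CPM, and within 1 kb the value was 0.02 (adjusted p = 0.946). COL21A1 went from 44.2, 42.9 and 38.6 to 34.5, 36.8 and 24.2 CPM (-0.41), a call lost without vehicle replicates 1 (-0.37), 2 (-0.40) or 3 (-0.47) or DOX replicate 3 (-0.24) and after removal of the GC trend (-0.13). COL7A1 rose from 101, 104 and 94.1 to 128, 128 and 114 CPM (0.30, SE 0.10, adjusted p = 0.0182), with 83.7% of the window's vehicle coverage from promoters of other genes. It was not called without those bins (0.30, adjusted p = 0.41), with TMM factors (0.24), or without vehicle replicates 1 (0.32) or 3 (0.26) or DOX replicate 1 (0.27). COL6A1, COL6A2, COL6A3 and COL17A1 did not pass the test in BT-549 (0.14, -0.18, 0.20 and 0.12).

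The sites of change were next compared by their place. Near collagen genes in DU-145, 45 of 192 regions were higher with DOX and 8 were lower (27.6% called), against 23.2% higher and 5.36% lower among all 79177 regions (28.5% called). In BT-549, 6 of 166 regions were higher and 19 were lower (15.1% called), against 4.84% and 11.9% of 46298 regions (16.7% called). The shares near collagen genes were thus close to those of the whole tables in both lines. In DU-145, 39 of the 45 opening regions were away from any protein-coding promoter, where 122 regions lay, and 5 of the 50 regions at collagen promoters opened. These are 32% and 10%, and of all regions within 20 kb of a protein-coding TSS, 25.2% of those away from promoters and 6% of those at promoters opened in DU-145. In BT-549, 16 of the 19 closing regions were among the 101 away from promoters (15.8%), against 13.6% over all genes' windows. With TMM factors, 12 BT-549 regions were higher, and without DOX replicate 3, 11 were. The tables hold regions with peaks in at least 3 replicates of a line, so that a region can enter through 1 group. Of the 45 opening DU-145 regions, 14 (31.1%) had a called peak in no vehicle library, and of the 8 closing ones 3 (37.5%) had none with DOX, against 43.6% and 42.5% of all opening and closing regions of the table. Of the 19 closing BT-549 regions, 17 (89.5%) had no peak in any DOX library, where depth was lowest, and none of the 6 opening ones lacked vehicle peaks, against 78% and 1.2% of all regions called. The calls of such regions are a description.

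**Figure D3:**
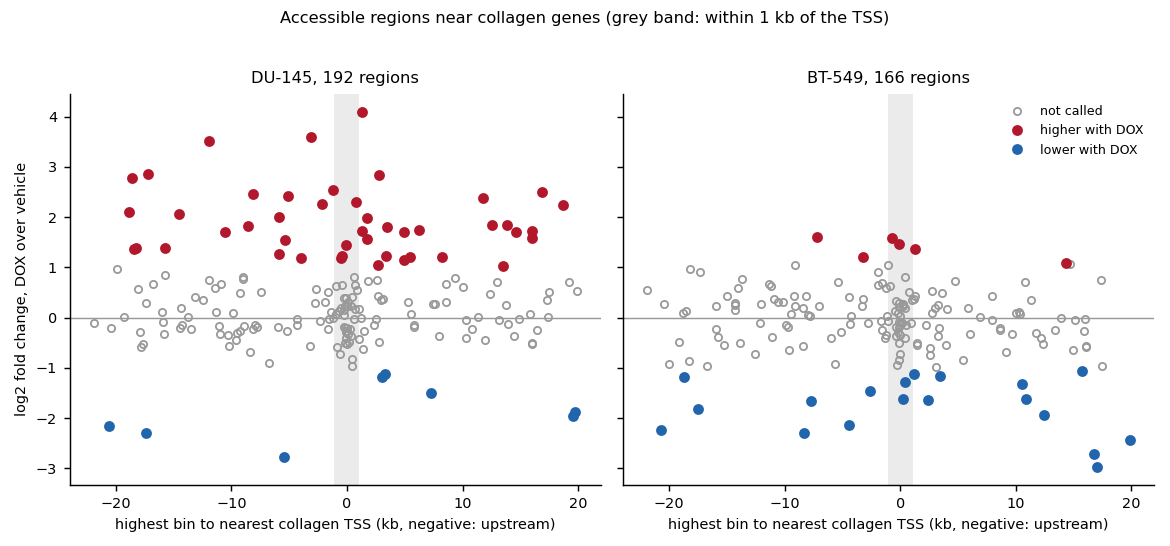
Log2 fold change with DOX of each accessible region against the distance of its highest bin from the nearest collagen TSS (kb, negative upstream), in DU-145 (192 regions) and BT-549 (166 regions). Colored points were called, and most lie outside the grey band that marks 1 kb on both sides of the TSS.

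Overlapping regions of the 2 tables formed 105 pairs near collagen genes, and 3 pairs (2.86%) were called in both lines, against 3.31% of the 32671 pairs of the whole tables. One pair was lower in both. It is the intergenic region at chr17:50221601-50222800, with its highest DU-145 bin 20.6 kb upstream of a COL1A1 TSS. In the DU-145 table, 1 of its 12 bins lies within the 20 kb window, and the values below are of the whole region, most of which is outside it. In DU-145, it had 47.2, 48.6 and 51.9 per bin with vehicle and 10.4, 10.1 and 12.4 with DOX (log2 fold change -2.16, SE 0.13, adjusted p = 9.89e-16). In BT-549, it had 6.02, 6.35 and 6.71 with vehicle and 1.73, 0.795 and 1.3 with DOX (-2.24), but a called peak in the vehicle libraries alone, so that this fall is a description. The coverage is scaled within each line, so the levels are not compared between lines.
The other two pairs were higher in DU-145 and lower in BT-549. They are the COL15A1 intron region at chr9:99019301-99020600 described above (2.77 in DU-145 and, over chr9:99019501-99020000, -1.19 in BT-549) and a COL19A1 intron region at chr6:70125101-70125500 (1.80 and, over chr6:70125001-70125700, -1.16), whose BT-549 groups overlapped. The BT-549 region of COL15A1 had peaks in the vehicle libraries alone, and the DU-145 region of COL19A1 in the DOX libraries alone.

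The lines were then compared in the vehicle libraries over the shared bins. These vehicle libraries are also the controls of the DOX comparisons. Of 36 collagen genes, 21 (58.3%) were higher in BT-549 and 10 (27.8%) were lower, against 43.4% and 34% of 15427 genes (77.4% called). The median log2 ratio of BT-549 over DU-145 was 0.55 for the collagen genes and 0.094 for all genes. Removal of the GC trend moved these to 0.32 and -0.11, with 18 higher and 10 lower. Of the FACIT genes, 8 of 9 were higher in BT-549, of the fibrillar genes 5 of 9, and of the type VI genes none of 3. The copy number of the loci, which can differ between cancer lines, was not measured here and its part was not tested.

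COL1A2 had 1.7, 1.6 and 0.97 CPM in DU-145 and 7.62, 9.32 and 10.3 CPM in BT-549 over 4 shared bins at its promoter (log2 ratio 2.55, SE 0.24, adjusted p = 1.14e-11). COL24A1, a fibrillar collagen of bone, had 1.12, 1.43 and 1.38 CPM in DU-145 and 8.01, 11.2 and 10.1 CPM in BT-549 (2.80, SE 0.23, adjusted p = 8.3e-13). COL5A1 had 9.97, 9.48 and 11 CPM in DU-145 and 43.7, 41.2 and 37.6 CPM in BT-549 (2.01, SE 0.13, adjusted p = 1.76e-15). The groups of these 3 genes did not overlap. COL4A1 had 26.2, 24.5 and 23.2 CPM in DU-145 and 97.3, 77.1 and 90.4 CPM in BT-549 (1.84, SE 0.10, adjusted p = 2.25e-17). COL4A2 had 38, 34.5 and 32.4 CPM in DU-145 and 125, 112 and 123 CPM in BT-549 (1.78, SE 0.09, adjusted p = 9.19e-19). The basement membrane pair COL4A1 and COL4A2 was thus more accessible in BT-549, while COL4A3 (-0.48, adjusted p = 5.27e-05) and COL4A4 were less accessible. COL22A1 was higher in BT-549 by 1.90. In DU-145, the vehicle libraries had 0, 1 and 0 peaks within 20 kb of COL22A1 and the DOX libraries 1, 2 and 2, so that this ratio is a description.

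COL4A4 had 41.6, 41 and 31.2 CPM in DU-145 and 16.2, 16 and 17.1 CPM in BT-549 (log2 ratio -1.21, SE 0.13, adjusted p = 3.44e-10). Without bins within 1 kb of the TSS of another gene, a setting that also drops the promoter in common with COL4A3, the ratio was 0.27 (adjusted p = 0.321). COL5A3, the third type V chain, had 6.42, 5.31 and 5.07 CPM in DU-145 and 2.46, 2.06 and 2.55 CPM in BT-549 (-1.24, SE 0.23, adjusted p = 1.34e-05). COL25A1 (-0.88, adjusted p = 0.00124), COL6A2 (-0.83, adjusted p = 3.29e-05), COL26A1 (-0.61, adjusted p = 0.000209) and COL6A1 (-0.57, adjusted p = 8.96e-06) were also lower in BT-549, COL6A1 not by its highest bin (-0.28, adjusted p = 0.232). COL5A2 was lower by 0.84 on the log2 scale over 6 shared bins (adjusted p = 0.000935), none of which lies within 1 kb of its TSSs. Over its own table, BT-549 had 55.2 ± 2.89 CPM at COL5A2 and DU-145 13.6 ± 1.84 CPM (SD, n = 3). Those sums cover 42 and 22 bins that were chosen in each line by its own peaks, and no order is read from them. COL6A3 did not pass (0.18, adjusted p = 0.48), again without promoter bins in DU-145. COL17A1 was higher by 1.01 (adjusted p = 1.5e-05) over 6 shared bins, and over the own tables, with the same limit, DU-145 had 30 CPM (53 bins) and BT-549 9.96 CPM (7 bins). COL1A1 had overlapping groups, and its ratio of 0.23 (adjusted p = 0.00889) was lost with TMM factors (0.14) or without DU-145 vehicle replicate 1 (0.17), turned to -0.07 after removal of the GC trend, and was -0.72 within 5 kb of the TSSs (adjusted p = 8.5e-08). COL2A1 was at 0.28 (adjusted p = 0.0397), with overlapping groups, and was not called without DU-145 vehicle replicates 1 (0.30) or 2 (0.18) or BT-549 vehicle replicates 1 (0.26) or 2 (0.22).

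**Figure D4:**
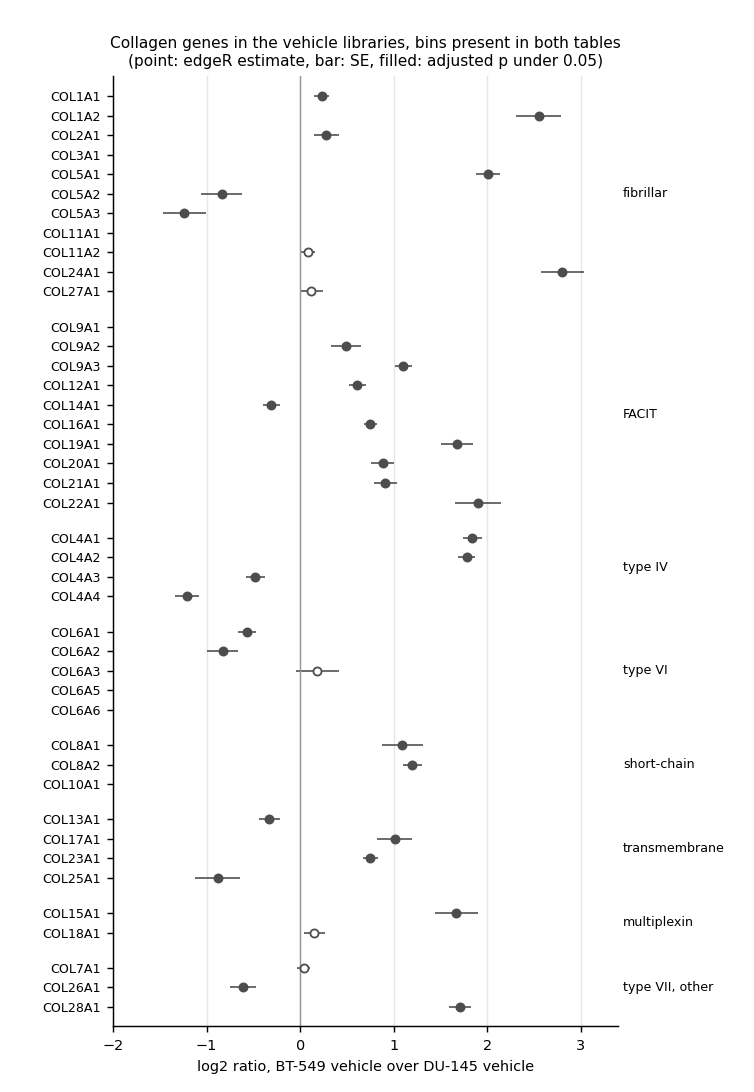
Log2 ratio of coverage in BT-549 vehicle over DU-145 vehicle libraries for each collagen gene over shared bins, with the SE as a bar and filled points at an adjusted p under 0.05. COL24A1 (2.8) and COL1A2 (2.55) lie farthest to the right and COL5A3 (-1.24) and COL4A4 (-1.21) farthest to the left.

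The peak lists of the single libraries gave another view of the collagen promoters. A peak summit lay within 1 kb of a TSS of 27, 27 and 27 collagen genes in the DU-145 vehicle libraries and of 27, 30 and 26 in the DOX libraries. In BT-549, the numbers were 34, 33 and 33 with vehicle and 25, 26 and 22 with DOX, in which depth was lowest. As a share of the 42 genes, this was 64.3% in the DU-145 vehicle libraries, 61.9% to 71.4% with DOX, 78.6% to 81% in BT-549 with vehicle and 52.4% to 61.9% with DOX. Of all 19111 genes, 71.7% to 73.7%, 72.9% to 73.9%, 71.6% to 74% and 63.6% to 66% had a promoter peak in the same groups, so that the share over all genes was also lower in BT-549 with DOX. In both lines, 22 collagen genes (52.4%) had a promoter peak in every vehicle library, against 65% of all genes. COL15A1, COL2A1, COL5A2 and COL6A3 (9.52%) had one in all BT-549 and no DU-145 vehicle libraries, against 2.53% of all genes, and COL5A3 the reverse (2.38% of both). COL15A1 gained a promoter peak in all DU-145 DOX libraries, with fold enrichments over the local background of 4.37, 3.95 and 4.7, where no vehicle library had one, as at 0.345% of all genes, although the coverage within 1 kb of its TSSs did not pass the test (0.80, adjusted p = 0.0914). COL17A1, COL21A1, COL25A1 and COL8A1 had a promoter peak in all BT-549 vehicle libraries and in none with DOX, against 3.2% of all genes. COL10A1, COL11A1, COL6A5 and COL6A6 had no promoter peak in any of the 12 libraries, against 17.1% of all genes. The BT-549 DOX libraries were also the shallowest, and the part of depth was not tested.

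**Figure D5:**
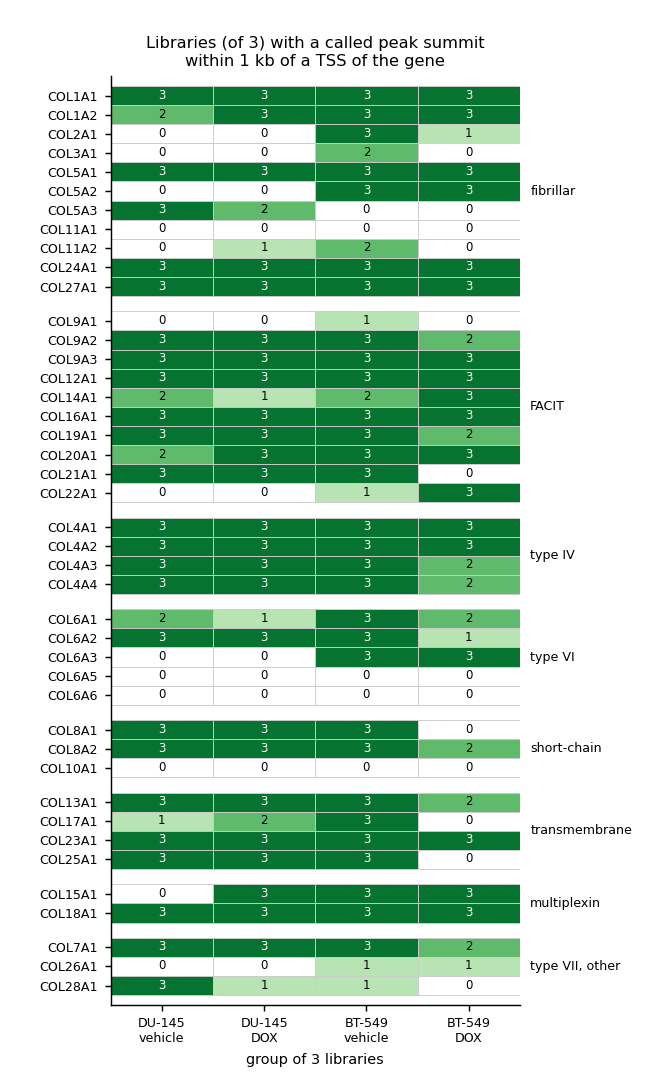
Number of libraries (0 to 3) with a called peak summit within 1 kb of a TSS of each collagen gene (rows) in each group (columns). COL15A1 has 0 in DU-145 vehicle and 3 in DU-145 DOX, and COL21A1 has 3 in the vehicle column of BT-549 and 0 in its DOX column.

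An interaction term over the shared bins tested whether DOX acted differently in BT-549 and DU-145. Of 36 collagen genes, the effect was higher in BT-549 than in DU-145 for 3 and lower for 8, against 35.9% and 8.8% of 15427 genes (44.7% called). The median difference was -0.12 for the collagen genes and 0.23 for all genes. At COL15A1, the shared bins went from 2.98 to 22.1 CPM in DU-145 and from 10.2 to 7.11 CPM in BT-549 (difference -3.26). The fall in BT-549 lies in the intronic region whose BT-549 peaks came from vehicle libraries alone, while the promoter region was at 0.19 there, so that the difference is a description, and within 5 kb it was -0.65 and did not pass (adjusted p = 0.276). The difference at COL19A1 (-1.04) is a description as well, since its shared bins include the intronic region that had DU-145 peaks in DOX libraries alone. The difference at COL4A4 (-0.55) is likewise a description. In BT-549, the vehicle libraries had 2, 2 and 2 peaks within 20 kb of it and the DOX libraries 0, 1 and 1, at the promoter. COL4A2 (-0.63) and COL4A1 (-0.54) of the type IV genes also had a lower effect in BT-549. COL4A1 and COL4A2 lost this call by the highest bin (adjusted p = 0.105), and COL4A4 within 5 kb (-0.45, adjusted p = 0.119) and without any of 7 single libraries (-0.43 to -0.57). With TMM factors, which moved the median of all genes to -0.00264, 1 gene was higher and 12 were lower, so that the share of higher genes among those called went from 27.3% to 7.69%, and that over all genes from 80.3% to 48.1%. The DU-145 gain at COL1A2 lies outside the shared bins, over which the difference was -0.40 (adjusted p = 0.404).

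The AP-1 sequence was counted in the bins as a description. It was found in 4.21% of the 1640 DU-145 bins near collagen genes and in 4.93% of all DU-145 bins. Among bins of opening collagen regions, 20 of 308 (6.49%) held it, among those of closing regions 4 of 68 (5.88%), and among those not called 3.5%. In BT-549, it was in 2.58% of the bins near collagen genes and in 3.1% of all bins, in 5 of 150 bins of closing regions (3.33%) and in none of the 34 bins of opening regions. Few bins are behind these shares, and no test was made.

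The enzymes and chaperones that modify, fold, cut and cross-link collagen were read in the same way. For these genes, the receptors and the markers, it was not examined which group's peaks brought in the bins. The part of neighbouring promoters in their windows was not examined either. Their calls are therefore a description. Of 32 such genes, 10 (31.2%) were higher and 12 (37.5%) lower with DOX in DU-145, beside 19.1% and 32.2% of all genes. ADAMTS2, which removes the amino-terminal propeptide, rose by 0.96 and the protease TLL1 by 0.82, while the prolyl hydroxylase subunits P4HA1 and P4HA2 changed by -0.55 and -0.43. In BT-549, 3 of 32 were higher and 6 lower (9.38% and 18.8%, beside 19.2% and 11.6% of all genes), with P4HA2 at -0.65, P4HA3 at -0.53, ADAMTS2 at 0.52 and P4HB at 0.28. P4HA2 was called lower in each line, and the share of all genes called lower in both lines was not counted. Between the vehicle libraries, 19 were higher and 9 lower in BT-549 (59.4% and 28.1%, beside 43.4% and 34% of all genes), with TLL1 at 2.88, ADAMTS2 at 2.63 and the lysyl oxidases LOXL3 and LOXL4 at -1.28 and -1.12.

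Of 9 collagen receptor genes with bins in DU-145, 3 (33.3%) were higher and 2 (22.2%) lower with DOX, and the shares over all genes and the limits are those given for the enzymes. DDR2, a receptor kinase for fibrillar collagen, rose by 0.86 and the integrin chain ITGA2 by 0.75, and ITGB1 and ITGA10 changed by -0.39 and -0.29. In BT-549, 1 of 8 was higher (ITGB1, 0.42) and 2 were lower (ITGA11, -1.48, and DDR2, -0.70). Between the vehicle libraries, 4 were higher in BT-549 and 4 lower, with DDR2 at 3.29 and ITGA11 at 1.12, and ITGA2 at -2.13 and MRC2 at -0.74. Of the fibroblast markers, 1 of 4 was called with DOX in DU-145 (LUM, 1.16), DCN, PDGFRA and PDGFRB did not pass, and the sums of the list overlapped between the groups. In BT-549, 2 of 3 were lower with DOX (DCN, -0.98, and PDGFRB, -0.31), and 2 of 2 were higher in BT-549 than in DU-145 with vehicle (PDGFRA, 1.26, and PDGFRB, 0.29). All 5 mesenchymal markers tested were also higher in BT-549 with vehicle, where the share of higher collagen genes exceeded that of all genes, with a median of 0.91 and with FN1 at 1.83 and ZEB2 at 1.37. In DU-145, the endothelial list (3 of 4 higher) summed to 119 to 144 CPM with vehicle and 186 to 192 CPM with DOX, the leukocyte list (1 of 3 higher and 2 lower) to 201 to 210 and 171 to 183 CPM, the epithelial list (3 of 7 higher and 1 lower) to 731 to 783 and 782 to 839 CPM, and the fibroblast list to 100 to 105 and 102 to 111 CPM. In BT-549, the fibroblast list summed to 175 to 190 CPM with vehicle and 122 to 163 CPM with DOX, the endothelial list (none of 3 called) to 57.1 to 66 and 68.2 to 72.7 CPM, the mesenchymal list (2 of 7 higher and 1 lower) to 618 to 648 and 719 to 774 CPM, and the leukocyte list (1 of 4 lower) to 251 to 263 and 225 to 287 CPM. The mesenchymal list in DU-145 (of 5, FN1 higher at 0.86 and SNAI2 lower at -0.41) summed to 260 to 279 CPM with vehicle and 252 to 265 CPM with DOX. The epithelial list in BT-549 (none of 4 called) summed to 176 to 185 CPM with vehicle and 159 to 179 CPM with DOX. The part of these markers in the collagen results was not tested.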

How the data were processed

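ATAC-seq libraries were made from tet-MUC1shRNA cells of both lines. The authors used bwa-mem for alignment to GRCh38, Picard for the removal of duplicates and MACS2 2.2.7.1 for peak calling in each replicate (q-value 0.05). They merged regions present in at least 3 replicates and cut them into 100-bp bins. The deposited bin values are estimated counts, the mean fragment number over the bases of a bin, not normalized for depth. In the deposited peak lists, the authors give a fold enrichment, the -log10 of the p-value and q-value and an integer score, which was not used.

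Bins within 20 kb of any GENCODE 44 TSS of a gene were summed, rounded and, for genes with a total of at least 10, tested with edgeR 4.0.16 (R 4.3.3, robust quasi-likelihood, prior count 1). Library size was the column sum with no further factor, and p-values were Benjamini-Hochberg adjusted over all autosomal protein-coding genes or all regions. The SE is the size of the log2 fold change divided by the square root of F. CPM is counts per 1000000 of the column sum. A sum over shared bins is scaled by the sum of the whole table. Depth was 2.5 to 25.2 in units of 1000000 per library. The model fits were tested on simulated data.

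Named were up to 6 called genes each way per comparison with the largest change and no overlap, up to 6 by adjusted p for the interaction, the chains COL1A1, COL1A2, COL3A1, COL4A1, COL4A2, COL5A1, COL5A2, COL6A1, COL6A2, COL6A3 and COL17A1, up to 4 regions each way with a mean of at least 20 in the highest bin, and 2 genes each way per list. Other genes were named after their values were seen. The members and lists were chosen with earlier results of these data known. The alternatives were TMM and RLE factors, DESeq2 1.42.0, limma-trend from limma 3.58.1 (log2 values, pseudocount of 1 CPM), no filter, removal of the GC trend, the replicate number as a block, each library left out, windows of 5 kb and 1 kb, no bins near other TSSs, the highest bin, library sums over shared bins, no fold threshold and, for peaks, a q-value of 0.01 or a summit within 500 bp.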

Additional observations from a re-analysis of the deposited data

Results flagged for a closer look

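The effect of DOX differed between BT-549 and DU-145 at 11 of 36 collagen genes by the interaction term over shared bins (edgeR, Benjamini-Hochberg adjusted), against 44.7% of all genes. With TMM factors, 1 collagen gene was higher and 12 were lower of 36, against 2327 higher and 2514 lower of 15427 genes, so that the collagen share lay below that of all genes with column sums and above it with TMM factors. The difference, BT-549 minus DU-145 on the log2 scale, was -0.63 at COL4A2 (adjusted p = 0.000266), -0.59 at COL28A1 (0.00907), -0.54 at COL4A1 (0.00407) and -0.40 at COL14A1 (0.0372). It was 0.68 at COL26A1 (0.0193), 0.63 at COL7A1 (4.34e-05) and 0.45 at COL11A2 (0.00779). At COL15A1 (-3.26) and COL19A1 (-1.04), the differences are a description, since the shared bins include a region with peaks in BT-549 vehicle libraries alone at the first and in DU-145 DOX libraries alone at the second. The difference at COL6A3 (-1.19) is a description as well, since its shared region had peaks in no BT-549 DOX library, although its value there was 0.14. So is that at COL4A4 (-0.55), near which the BT-549 vehicle libraries had 2, 2 and 2 peaks and the DOX libraries 0, 1 and 1, at the promoter.

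COL4A1 and COL4A2 read partly the same bins, so that these are not separate sites, and neither was called by the highest bin (-0.55 for both, adjusted p = 0.105). The COL15A1 difference was -0.65 within 5 kb (adjusted p = 0.276) and 1 kb (adjusted p = 0.277), and did not pass. COL19A1 was not called within 5 kb (-0.63, adjusted p = 0.0944) or 1 kb (0.09, adjusted p = 0.854). After removal of the GC trend, COL28A1 (-0.28, adjusted p = 0.239) and COL14A1 (-0.33, adjusted p = 0.0918) were not called. Without other promoters, COL4A1 (-0.30, adjusted p = 0.481) and COL4A4 (-1.01, adjusted p = 0.138) were not called, a setting that drops the promoters of the type IV pairs. At COL7A1 and COL11A2, most coverage of the window lies at promoters of other genes, and without those bins the differences were 0.05 (adjusted p = 0.921) and 0.04 (adjusted p = 0.932). COL11A2 and COL26A1 were not called with TMM factors (0.22 and 0.45). COL14A1 lost its call without any of DU-145 vehicle replicates 1 (-0.36) or 3 (-0.40), DU-145 DOX replicates 1 (-0.38) or 2 (-0.40), BT-549 vehicle replicates 1 (-0.40) or 3 (-0.39) or BT-549 DOX replicates 1 (-0.34) or 2 (-0.36). COL4A4 lost it without DU-145 vehicle replicate 3 (-0.43), DU-145 DOX replicates 2 (-0.57) or 3 (-0.49), BT-549 vehicle replicates 1 (-0.56) or 3 (-0.52) or BT-549 DOX replicates 1 (-0.44) or 2 (-0.46). COL26A1 lost it without DU-145 DOX replicate 1 (0.59) or BT-549 DOX replicate 1 (0.59), and COL11A2 without BT-549 DOX replicate 2 (0.34). No test for a single outlying library was made in groups of 3.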

How the results depend on the processing

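Over 101 gene and region results, 1534 values under an alternative kept direction and call, 148 lost the call, 7 gained it and 68 changed sign. In DU-145, called genes were 6 higher and 5 lower of 32 with a 1 kb window, 4 were lower with 5 kb, and 5 were lower with TMM factors, RLE factors or DESeq2. In BT-549, 1 was higher with any of these scalings, with 5 kb or 1 kb or without other promoters, and 4 with the highest bin, while 5 were lower with 5 kb, the highest bin or the GC trend removed and 3 with 1 kb. For the interaction, 1 gene was higher with TMM, RLE or DESeq2, without other promoters or with shared-bin sums, 7 with the highest bin, and 5 were lower with 1 kb. With no fold threshold, 25 DU-145 regions were lower and in BT-549 14 were higher and 30 lower, 12 BT-549 regions were higher with TMM or RLE factors, and 5 DU-145 regions were lower with limma-trend. The cause of these changes was not tested, except that smaller windows hold fewer bins.

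Values that changed sign are given next. In DU-145 with 1 kb, they were COL16A1 0.06, COL27A1 -0.19, COL28A1 -0.82, COL4A3 0.39 and COL7A1 0.41. With 5 kb, they were COL27A1 -0.20, COL2A1 0.27, COL4A3 0.54, COL6A1 0.07 and COL7A1 0.19, and COL7A1 was 0.18 without other promoters. With the highest bin, COL17A1 was -0.17, COL3A1 -0.10, COL5A2 -0.47 and COL8A1 -0.29. COL6A1 was 0.04 and COL6A2 0.01 with TMM, RLE or DESeq2. With the GC trend removed, COL3A1 was -0.26 and COL6A2 0.02, and COL3A1 was 0.00 with limma-trend. In BT-549 with 1 kb, COL12A1 was 0.02, COL15A1 0.19, COL1A1 0.32, COL1A2 0.34, COL5A1 0.09 and COL7A1 -0.03. With 5 kb, COL15A1 was 0.19, COL1A1 0.16, COL1A2 0.18 and COL5A1 0.02. With the highest bin, COL12A1 was 0.19, COL15A1 0.49, COL1A1 0.38, COL3A1 0.40, COL6A1 -0.04 and COL6A2 0.10, and COL1A2 was 0.18 with the GC trend removed. Between the lines, COL1A1 was -0.72 with both 1 kb and 5 kb, -0.37 with the highest bin and -0.07 with the GC trend removed. COL12A1 was -0.16, COL14A1 0.69 and COL9A2 -0.06 with the highest bin, COL6A3 -0.06 with the GC trend removed and COL4A4 0.27 without other promoters. In the interaction, COL14A1 was 0.12, COL19A1 0.09 and COL7A1 -0.75 with 1 kb, and COL11A2 -0.55 and COL7A1 -0.11 with 5 kb.

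With one library left out, the DU-145 counts were 15 to 16 higher and 6 to 8 lower, the BT-549 counts 1 to 4 and 5 to 8, those between the lines 19 to 21 and 10, and those of the interaction 2 to 4 and 6 to 10. Regions were 43 to 47 higher and 7 to 9 lower in DU-145 and 4 to 11 and 15 to 19 in BT-549. Uncalled values that changed sign this way were, in BT-549, COL1A2 (-0.16 to 0.05, with 0.05, 0.04 and 0.03 above 0), COL17A1 (-0.16 to 0.36) and COL6A2 (-0.60 to 0.21), and, in DU-145, COL3A1 (-0.08 to 0.09, with -0.08, 0.00, -0.05 and -0.04 at or below 0), COL6A1 (-0.06 to 0.02, also 0.01) and COL6A2 (-0.21 to 0.04, also 0.02).

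These data do not settle whether the replicate numbers pair the libraries. The deviations of same-numbered vehicle and DOX libraries correlated at 0.204, 0.105 and -0.0503 in DU-145 and at 0.013, 0.169 and 0.0543 in BT-549, across genes, and not every library correlated best with its own number. With the replicate number as a block, DU-145 had 16 higher and 8 lower genes, BT-549 3 and 10, the lines 21 and 10, the interaction 3 and 8, and the regions 45 and 8 in DU-145 and 4 and 19 in BT-549. COL3A1 in BT-549 was called lower with the block (-0.55), which is a description, since most peaks near it came from the vehicle libraries. The low depth of the BT-549 DOX libraries limits what a missing call or peak there can show. Shared bins leave out sites open in one line only.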
